A study of Homo sapiens with 6 samples.

Results

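The genes described here are 10 genes of regulated secretion: the synaptotagmins SYT1, SYT7, SYT11, SYT13 and SYT17, the synaptotagmin-like genes SYTL1, SYTL2, SYTL4 and SYTL5, and CADPS2, the Ca2+-dependent activator protein for secretion 2. They were chosen from results of these same arrays, with SYT13 and CADPS2 picked for their difference between the groups, so their changes are given as a description with a standard error (SE) and no p-value. Every probe set annotated to a member was taken, which gave 24 probe sets of 54613 and 10 genes of 19775 named on the array. The cells were Caco2, an established human colon cancer line, and their RNA was hybridised to Affymetrix HG U133 Plus 2.0 arrays, where a probe set reports a transcript as a signal intensity. Cells resistant to 10 µM methotrexate (MTX) were run on 3 arrays, and parental cells, which are sensitive to MTX, to another 3. Resistant cells had been obtained by stepwise exposure to MTX and grew with dialyzed serum in a medium without thymidine, hypoxanthine or glycine, while parental cells were grown in Ham's F12 medium with fetal bovine serum, so resistance and medium cannot be told apart. The sources used here do not give whether the resistant cells were a single clone, or whether the arrays of each group stand for separate cultures.

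In regulated secretion, vesicles dock at the plasma membrane, are primed and fuse when Ca2+ rises. Synaptotagmins are membrane proteins with paired C2 domains, some of which bind Ca2+ and trigger fusion by SNARE proteins. The synaptotagmin-like proteins carry an N-terminal domain that binds the vesicle GTPase RAB27, and CADPS2 primes dense-core vesicles, the granules that hold peptide hormones and amines. In the gut this machinery is best known from enteroendocrine and mucus-secreting cells.

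Signals are given as multiples of the median of their array, which was 10.6 to 11.5 signal units on the resistant arrays and 11.1 to 12.8 on the parental arrays. Across tested probe sets, parental array 3 correlated with the other parental arrays at 0.946 and 0.949, against 0.966 between these 2 and 0.968 to 0.971 among the resistant arrays. The colon epithelium list summed to 2390 to 2490 in resistant and 1560 to 1920 in parental cells. Of its 8 tested genes 5 were higher past the threshold, an adjusted p below 0.05 in limma, and 0 lower. Of all 11849 tested genes, by brightest probe set, 7.37% were higher and 5.05% lower. KRT20 was 2.97-fold, LGALS4 1.97-fold, VIL1 1.74-fold, KRT8 1.6-fold and KRT18 1.33-fold higher, and EPCAM (336 in resistant and 309 in parental cells), CDH1 and CDH17 did not pass, whereas the intestinal transcription factors CDX1 and CDX2 stayed below 1.2 times the array median on every array. Of 18 enteroendocrine markers 17 were too dim to test. They included the granule proteins CHGA and CHGB, which lay below 0.92 on every array, and ISL1, an islet and enteroendocrine transcription factor, alone was tested and fell (-0.92 ± 0.16, adjusted p = 0.00833 in limma). The summed signal of the enteroendocrine list was 14.1 to 20.3 in resistant and 23.9 to 26.2 in parental cells, but without ISL1 it was 5.94 to 9.17 in resistant and 6.43 to 8.78 in parental cells, which overlap. The goblet cell list summed to 243 to 274 in resistant and 42.9 to 64.3 in parental cells. Of its 7 tested genes 5 were higher past the threshold and 0 lower, against 7.37% and 5.05% of all tested genes. The 5 were AGR2 (197 in resistant and 43.5 in parental cells, 4.62-fold), TFF3 (40.4 and 1.51, 29.9-fold), SPDEF (1.57-fold), FCGBP and ATOH1. Most of the goblet sum came from AGR2. FCGBP and ATOH1 had parental means of 0.464 and 0.844 array medians. MUC2 and REG4, which did not pass in their brightest probe sets, had 0.738 and 0.764. By these probe sets FCGBP, ATOH1, MUC2 and REG4 thus entered the test only through their signal in resistant cells. Of the 2 tested REG4 probe sets 1 was higher past the threshold. The 6 Paneth cell markers summed to 806 to 927 in resistant and 352 to 507 in parental cells. LYZ and MMP7, which rose, made up nearly all of it, and the other 4, among them the defensins DEFA5 and DEFA6, were untested and summed to 1.53 to 1.87 in resistant and 1.56 to 1.91 in parental cells. The sums were for the 8 fibroblast markers 9.58 to 11.2 in resistant and 7.15 to 7.53 in parental cells, and the 9 neuronal markers 98.5 to 122 in resistant and 59.7 to 118 in parental cells, where the neuronal sum came mostly from TUBB3. Among the fibroblast markers LUM alone passed, as higher, with means of 2.57 in resistant and 0.272 in parental cells. LUM entered the test only through its signal in resistant cells. The part of these shifts in the changes described next was not tested, and more cells of a type cannot be told apart from more RNA per cell.

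The comparison of resistant with parental cells asked which of these genes differed with MTX resistance. SYT13 stood out with a brightest probe set 9.56-fold higher in resistant cells, and SYT17 was 7.29-fold higher from a parental level below the array median. SYTL5 was 2.65-fold and SYTL2 1.51-fold higher, whereas SYTL1 was 1.96-fold lower. CADPS2 was 2.27-fold higher but did not pass the threshold, an adjusted p below 0.05 in limma over all 26563 tested probe sets. SYT7 and SYTL4 gave changes near or within the spread of their arrays, and SYT1 and SYT11 were too dim to test. Signals of different probe sets are not on one scale, so brightest below means only the highest signal, not the most transcript.

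Of the 24 probe sets, 12 had a mean signal of at least 1 array median and were tested, and they stood for 8 of the 10 genes. Past the threshold were 5 of these 12 probe sets as higher and 1 as lower, against 5.75% (higher) and 4.27% (lower), or 10% in either direction, of all tested probe sets. By brightest probe set, 4 members were higher and 1 was lower, against 7.37% and 5.05% of 11849 genes. The resistant and parental arrays did not overlap for 8 of the 12 probe sets, against 32.1% of all those tested. The median log2 change over the 12 was 1.05, against 0.004 over all tested probe sets. Nothing is read from these counts, or from how often a member's call held below, since the members were chosen on this contrast. Both SYT17 probe sets also entered the test only through their signal in resistant cells. With any one resistant array left out, 1 of the 12 probe sets was past the threshold as higher and 0 as lower, and without parental array 3 the counts were 6 and 1. The counts over all 26563 tested probe sets moved too, from 1528 and 1135 to 476 to 555 and 393 to 525 without a resistant array. Without parental array 3 they were 3586 and 3518.

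**Figure D1:**
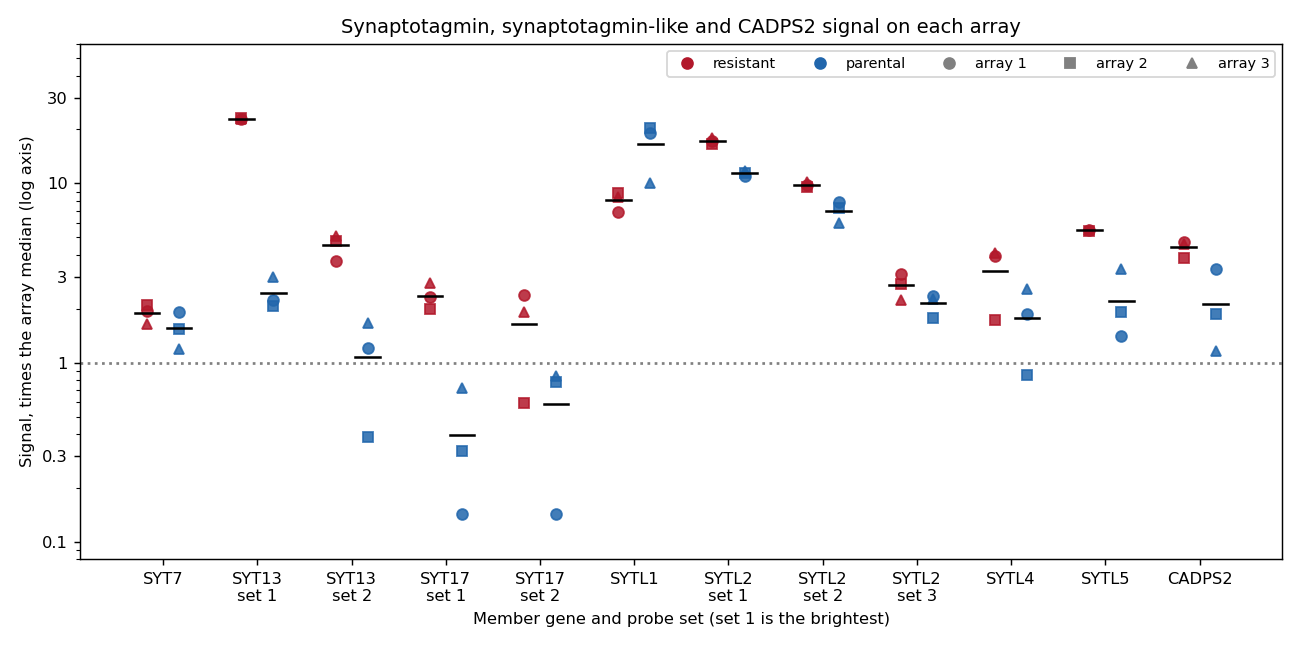
Signal of the 12 tested member probe sets on each array, as multiples of the array median on a log axis (resistant in red, parental in blue, one marker shape per array number, black bars at the means and a dotted line at 1 array median). SYT13 set 1 lay between 22.9 and 23.2 on the resistant arrays and between 2.08 and 2.99 on the parental arrays, and SYTL1 is the one gene drawn lower in resistant cells.

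The Ca2+-binding synaptotagmins were dim. SYT1, the fast Ca2+ sensor of synaptic vesicles, gave 0.108, 0.104 and 0.626 on resistant arrays 1, 2 and 3, against 1.16, 0.891 and 0.664 on parental arrays 1, 2 and 3, in its brighter probe set (203999_at). Resistant array 3 came close to parental array 3, and only parental array 1 exceeded the array median. The other SYT1 probe set stayed at or below 0.339 on every array.

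SYT7, a Ca2+ sensor of slower release that also acts in lysosome exocytosis, was read by 5 probe sets, of which 1 was tested (226167_at). Its signal was 1.95, 2.10 and 1.64 in resistant and 1.93, 1.54 and 1.19 in parental cells, a log2 change of 0.31 ± 0.30. The groups overlapped, and the remaining probe sets lay between 0.0609 and 1.03 over all arrays.

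SYT11 and SYT13 belong to the synaptotagmins whose C2 domains do not bind Ca2+. SYT11, which has been tied to endocytosis and vesicle trafficking, was below the array median in all 3 probe sets on every array, with 0.865 as the highest value. Its arrays scattered widely within each group, from 0.0619 to 0.865 in parental cells for 209197_at, so no change is given.

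SYT13 was the member with the clearest separation. Its brightest probe set (226086_at) gave 22.9, 23.2 and 23.0 on the resistant arrays, against 2.25, 2.08 and 2.99 on the parental arrays. The resistant arrays lay within 0.3 of each other, and the lowest of them was 7.67 times the highest parental array. The log2 change was 3.26 ± 0.18 and ranged from 3.01 to 3.41 over the 15 alternatives. The second probe set (221859_at), at a lower signal, gave 3.71, 4.78 and 5.09 in resistant and 1.20, 0.383 and 1.66 in parental cells. These groups did not overlap either, with a log2 change of 2.30 ± 0.48, and 2 of the 3 parental arrays were above the array median. The second probe set depended on parental array 2, without which its change was 3.18-fold in place of 4.91-fold, and it was past the threshold in 9 of 14 alternatives.

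SYT17, also called B/K protein, has paired C2 domains but no transmembrane segment like that of the other synaptotagmins. Its brighter probe set (205613_at) gave 2.33, 2.00 and 2.78 on the resistant arrays, against 0.144, 0.320 and 0.726 on the parental arrays. Every resistant array was above the array median and every parental array below it, and the log2 change was 2.87 ± 0.63. Because the parental signals were low, the size depended on how they were treated: with an offset of 0.5 array medians SYT17 was 3.30-fold higher, and without parental array 3 it was 10.9-fold. The call was lost without any one resistant array and in the methods' t-test, here a plain t-test on the same log2 values. The second probe set (229053_at) gave 2.40, 0.594 and 1.93 in resistant and 0.144, 0.781 and 0.841 in parental cells. Resistant array 2 fell among the parental arrays there, and the change of 1.62 ± 0.82 was not past the threshold (1.73-fold without parental array 1 and 4.72-fold without resistant array 2, in place of 3.07-fold).

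Among the synaptotagmin-like genes, SYTL1 and SYTL5 changed in opposite directions. For these 2 the RefSeq promoter table of assembly GRCh38.p14 held an entry, as it did for SYT1, SYT11 and SYTL4. The 250 bases before each start are shown because they differ in base composition, with the dinucleotide CG in capitals and the sequence running 5′ to 3′ on the gene's strand. SYTL1 lies on the plus strand at chr1:27341772-27342021 and SYTL5 on the plus strand at chrX:38006303-38006552.
SYTL1: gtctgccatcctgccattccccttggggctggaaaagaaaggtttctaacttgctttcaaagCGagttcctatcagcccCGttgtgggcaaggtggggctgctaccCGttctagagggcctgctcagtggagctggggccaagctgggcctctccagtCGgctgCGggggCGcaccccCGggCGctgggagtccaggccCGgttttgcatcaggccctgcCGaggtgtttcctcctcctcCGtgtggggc
SYTL5: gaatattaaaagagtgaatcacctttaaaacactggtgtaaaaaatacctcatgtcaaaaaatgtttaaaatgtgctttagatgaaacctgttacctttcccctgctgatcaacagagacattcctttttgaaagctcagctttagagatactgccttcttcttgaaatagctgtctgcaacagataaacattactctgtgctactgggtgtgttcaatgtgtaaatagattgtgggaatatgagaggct
The SYTL1 stretch was 64.0% G and C with 11 CG dinucleotides, and the SYTL5 stretch 36.0% with 0. Over 27305 promoters of the same length the medians were 58.0% and 11. Neither stretch held the TATA box TATAAA, the CCAAT box CCAAT, the GC box GGGCGG, the cAMP response element TGACGTCA or the RE1 left element TTCAGCACC on either strand. Those letters were found in 11.1%, 33.0%, 42.3%, 1.77% and 0.3% of all promoters. None of these measures was linked to expression here.

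SYTL1, a RAB27 effector found in leukocytes and secretory epithelia, was read by a single probe set (227134_at). It gave 6.96, 8.89 and 8.39 on the resistant arrays, against 19.2, 20.3 and 10 on the parental arrays. All resistant arrays were lower, but parental array 3 lay only 1.13 times above the highest of them. The log2 change was -0.97 ± 0.26, and it was past the threshold in 7 of 15 alternatives, not when any one array other than parental array 3 was left out.

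SYTL2, which in mice helps mucus granules of the stomach to dock, was read by 3 probe sets that can each detect several transcripts. The brightest (232914_s_at) gave 17.2, 16.7 and 17.9 in resistant and 11.0, 11.5 and 11.8 in parental cells. Both groups were tight and did not overlap, with a log2 change of 0.59 ± 0.14. Leaving out any one array other than parental array 3 ended the call, as did no further scaling, no intensity trend and the replicate number as a block. The next probe set (225496_s_at) gave 9.81, 9.58 and 10.2 in resistant and 7.89, 7.29 and 6.0 in parental cells, also without overlap (0.49 ± 0.16, not past the threshold). The third (220613_s_at) gave 3.14, 2.75 and 2.24 in resistant and 2.37, 1.78 and 2.28 in parental cells and overlapped (0.34 ± 0.24).

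SYTL4, or granuphilin, docks insulin granules in pancreatic beta cells. Its one tested probe set (227703_s_at) gave 3.94, 1.74 and 4.11 on the resistant arrays, against 1.87, 0.859 and 2.59 on the parental arrays. Array 2 was lowest in both groups, the groups overlapped, and the change of 0.92 ± 0.45 was not past the threshold. The other SYTL4 probe sets ranged from 0.189 to 1.08 in resistant and from 0.257 to 1.5 in parental cells.

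SYTL5, the family member that also carries the RAB27-binding domain but is little studied, gave 5.47, 5.46 and 5.53 in resistant and 1.41, 1.91 and 3.32 in parental cells (242093_at). The resistant arrays differed by less than 0.1, while the parental arrays spread and array 3 stood highest. The log2 change was 1.4 ± 0.29. The call ended without any one resistant array, without parental array 2, without the intensity trend and in the methods' t-test. A dimmer SYTL5 probe set (1553033_at) gave 0.973, 0.774 and 1.5 in resistant and 0.324, 0.0234 and 0.637 in parental cells, in the same direction and without overlap, but was too dim to test.

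CADPS2 was read by one probe set (219572_at), with 4.74, 3.84 and 4.62 on the resistant arrays, against 3.32, 1.87 and 1.16 on the parental arrays. The lowest resistant array was 1.16 times the highest parental array, and all 6 arrays exceeded the array median. The log2 change was 1.18 ± 0.34. It passed the threshold with the offset, with the replicate number as a block, and without parental array 1 or 3, and its fitted change ran from 0.82 to 1.57 over the alternatives. CADPS, the paralog best known from neurons and neuroendocrine cells, stayed below 0.6 times the array median on every array in its brightest probe set.

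Parental array 3 lay toward the resistant arrays, relative to the mean of parental arrays 1 and 2, for 9 of the 12 tested probe sets. On the log2 scale it was 1.76 higher for SYT17, 1.03 for SYTL4, 1.02 for SYTL5, and 0.47 and 1.30 for the brighter and the dimmer SYT13 probe set, and -0.98 for SYTL1. CADPS2 (-1.10), SYT7 (-0.53) and 225496_s_at of SYTL2 (-0.34) lay away from the resistant arrays. For all tested probe sets the 5th and 95th percentiles of this difference were -1.0 and 0.85. How many of all tested probe sets lay toward resistant cells on this array was not counted, so nothing is read from the 9 of 12. Across tested probe sets parental array 3 was also the nearest of its group to resistant cells, with correlations of 0.935 to 0.939. Those of parental array 1 were 0.924 to 0.929, and those of parental array 2 were 0.914 to 0.920. The cause of this position of parental array 3 was not tested.

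Other exocytosis genes were listed by role and not by how they moved. In these 6 lists 58 of 105 genes were tested, 3 were higher past the threshold (5.17%, against 7.37% of all genes) and 1 was lower (1.72%, against 5.05%). Of the 3 higher genes, RAB3A and SCG5 had parental means below the filter. The median log2 change of the 58 was -0.09, against 0.015 over all genes. At an unadjusted p below 0.05 in limma the counts were 6 and 6. Without parental array 3 they were 7 and 5 past the threshold, beside 3586 and 3518 of all 26563 tested probe sets. Without any one resistant array they were 0 and 0, beside 476 to 555 and 393 to 525 of all tested probe sets. With a gene's probe sets averaged they were 6 and 0. No share of all genes is given at the unadjusted cut or with probe sets averaged, so nothing is read from those counts.

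Among the C2 domain proteins outside the chosen genes, 7 of 20 were tested and 0 passed in either direction. At an unadjusted p below 0.05 in limma 0 were higher and 2 lower. ESYT2 and ESYT1, which tether the endoplasmic reticulum to the plasma membrane, were the brightest. ESYT2 gave 24.2, 26.3 and 28.6 in resistant and 40.8, 42.9 and 31.4 in parental cells (-0.53 ± 0.16, adjusted p = 0.0577 in limma). It was past the threshold with quantile normalization and without parental array 3. ESYT1 gave -0.22 ± 0.18.

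Of the priming and docking factors 5 of 20 were tested. STXBP6, or amisyn, which binds SNARE proteins, rose 1.81-fold (0.86 ± 0.21, adjusted p = 0.0294 in limma). Its signal was 5.86, 6.32 and 9.12 in resistant and 3.59, 3.81 and 4.17 in parental cells, without overlap. The call held in 6 of 15 alternatives and the highest adjusted p was 0.142 in limma or the methods' t-test. The other tested STXBP6 probe sets did not pass, with 1.07 ± 0.33 (adjusted p = 0.071 in limma) and 0.45 ± 0.23 (adjusted p = 0.251 in limma). The Munc18 proteins STXBP3 (-0.31 ± 0.17) and STXBP2 (0.08 ± 0.15) did not pass.

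Of 20 SNARE and recycling genes 18 were tested, and VAMP4, a SNARE of the trans-Golgi network, was the one call. VAMP4 fell 1.93-fold (-0.95 ± 0.24, adjusted p = 0.0374 in limma), with 2.45, 2.54 and 3.40 in resistant and 6.45, 5.98 and 3.91 in parental cells. This call too held in 6 of 15 alternatives, with 0.176 as the highest adjusted p in limma or the methods' t-test. The other tested VAMP4 probe sets did not pass, with -0.82 ± 0.29 (adjusted p = 0.104 in limma) and -0.26 ± 0.33 (adjusted p = 0.658 in limma). The bright vesicle SNAREs VAMP3 (0.11 ± 0.15) and VAMP7 (-0.03 ± 0.12) did not pass.

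The RAB group holds the partners of the synaptotagmin-like proteins, and 12 of its 18 genes were tested. RAB3A, a vesicle GTPase of neurons and endocrine cells, rose 7.81-fold (2.97 ± 0.78, adjusted p = 0.0403 in limma), with 2.00, 2.25 and 1.18 in resistant and 0.189, 0.555 and 0.106 in parental cells. All parental arrays were below the array median, so RAB3A entered the test only through its signal in resistant cells and had to differ. RAB3A was 4.75-fold higher when signals below the 25th percentile of an array were set to it, 2.97-fold with the offset and 12.3-fold without parental array 2. Its call ended without any one resistant array or parental array 1 and in the methods' t-test, with 0.195 as the highest adjusted p. RAB27A and RAB27B, named for their binding to the SYTL proteins and outside the naming rule, gave 0.63 ± 0.22 (adjusted p = 0.0936 in limma) and 0.45 ± 0.20 (adjusted p = 0.184 in limma) in their brightest probe sets. Of the 5 tested RAB27A probe sets 1 was higher past the threshold, and RAB27B passed without parental array 3. RAB26, a GTPase of secretory granules, was higher in one probe set (0.76 ± 0.16, adjusted p = 0.0188 in limma), while its brightest (0.73 ± 0.22, adjusted p = 0.0629 in limma) passed only without parental array 3. The RAB27 effector EXPH5 was lower in one probe set (-0.75 ± 0.20, adjusted p = 0.0411 in limma), with -0.25 ± 0.14 in its brightest (adjusted p = 0.282 in limma). RAB26 and EXPH5 also lie outside the naming rule. RAB3GAP1 (-0.37 ± 0.16), which regulates RAB3 proteins, and the melanosome linker MLPH (0.13 ± 0.14) were the brightest that did not pass.

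All 9 exocyst subunits, which tether vesicles at the plasma membrane, were tested and 0 passed. At an unadjusted p below 0.05 in limma 0 were higher and 1 was lower. The brightest were EXOC1 (-0.12 ± 0.14) and EXOC5 (0.13 ± 0.15), and the median was -0.13. Without parental array 3, EXOC4 (adjusted p = 0.0298 in limma) and EXOC8 (adjusted p = 0.0164 in limma) were past the threshold as lower.

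Of 18 genes of granule cargo and prohormone processing 7 were tested. SCG5, or 7B2, the chaperone of prohormone convertase PCSK2, rose 9.86-fold (3.30 ± 0.73, adjusted p = 0.0210 in limma). It gave 4.12, 4.31 and 4.19 in resistant and 1.37, 0.492 and 0.115 in parental cells, so the resistant arrays were tight and apart while the parental arrays spread. The parental mean was 0.659 array medians, so SCG5 too entered the test only through the resistant arrays. The fold was 4.50 with the offset, 17.7 when parental array 1 was left out and 5.12 when parental array 3 was, and the call ended without any one resistant array, without the intensity trend and in the methods' t-test (highest adjusted p 0.196). PAM, which amidates peptide hormones, was bright and gave -0.10 ± 0.13, and the amine carrier SLC18A2 gave -0.25 ± 0.29. The chromogranin SCG3 and the carboxypeptidase CPE stayed below 0.6 on every array.

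**Figure D2:**
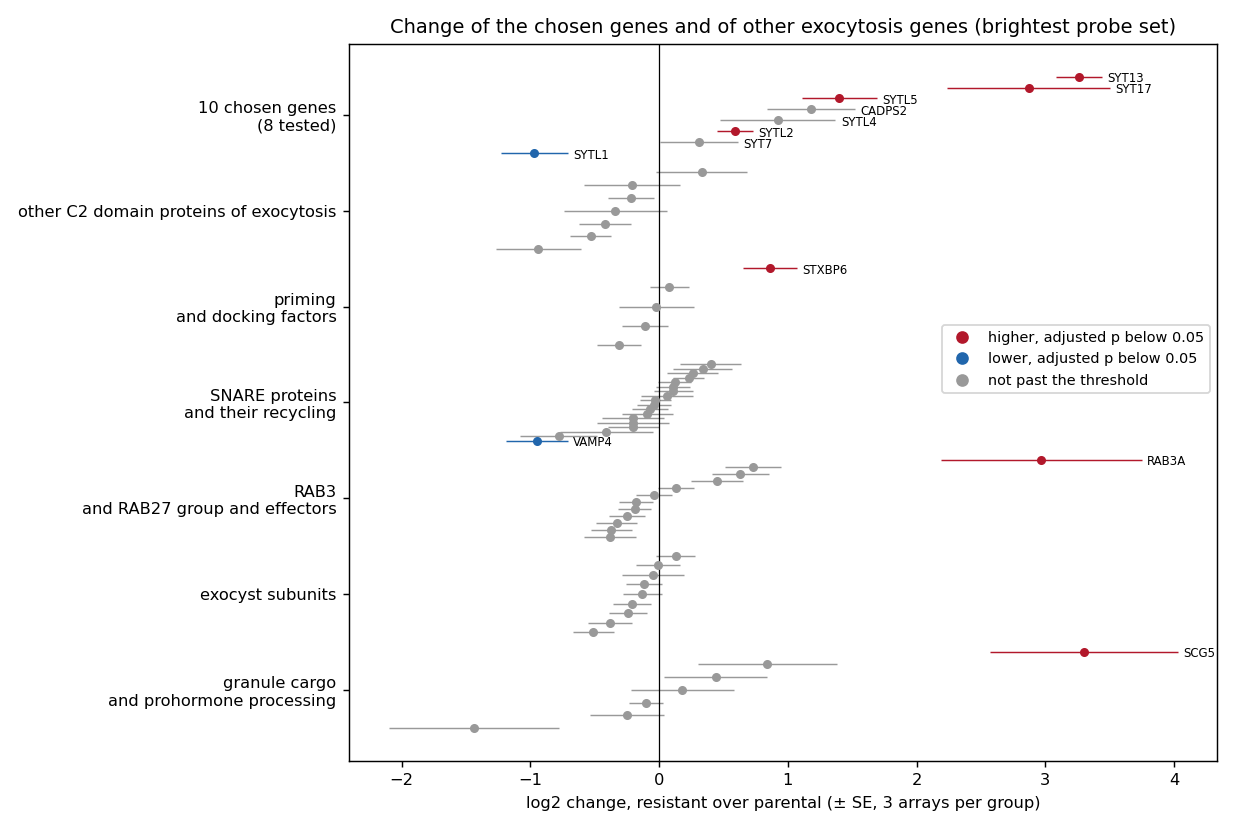
Log2 change, resistant over parental, of the brightest tested probe set of each gene (± SE, 3 arrays per group), for the chosen genes and for 6 lists of other exocytosis genes (red, higher, and blue, lower, at an adjusted p below 0.05). SYT13 lies at 3.26, while outside the chosen genes STXBP6, RAB3A and SCG5 are marked as higher and VAMP4 as lower among 58 tested.

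Whether the members moved with their chromosomal neighbours was read from the 5 nearest tested genes on either side in the RefSeq gene order. For SYT13 on chromosome 11, 0 of 10 neighbours passed, with changes from -1.10 to 1.20, and the upper value belonged to PRDM11, the nearest on one side (1.20 ± 0.38, adjusted p = 0.0749 in limma). For SYT17, SYTL2 and SYTL5 the counts were 0 of 10 each, with medians of 0.00, 0.00 and -0.08. Around CADPS2 on chromosome 7 the median was -0.46 and 2 of 10 genes fell, including the nearest tested gene on one side, FAM3C (-1.10 ± 0.18, adjusted p = 0.00487 in limma), while CADPS2 itself was at 1.18. Next to SYTL4 on chromosome X, CSTF2, NOX1 and XKRX rose, by 0.85, 1.64 and 1.74. SYTL1 had 1 riser (NR0B2, 3.66 ± 0.82) and SYT7 had 1 (FEN1, 1.36 ± 0.30) among 10 each, and 0 that fell. These neighbours were named after their values were seen. Of all 11849 tested genes, by brightest probe set, 7.37% were higher and 5.05% lower past the threshold. No share is given for sets of 10 adjacent genes, so nothing is read from the neighbour counts.

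**Figure D3:**
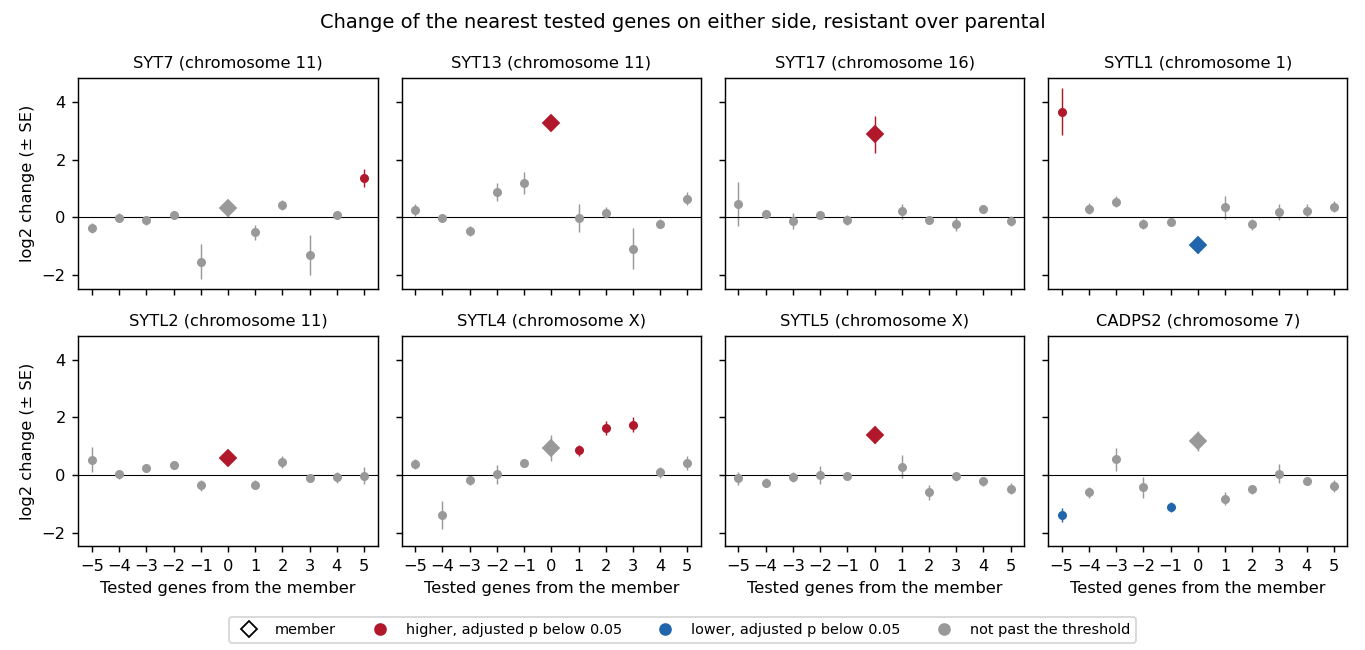
Log2 change (± SE), resistant over parental, of each tested member (diamond, position 0) and of the 5 nearest tested genes on either side in RefSeq order (circles, red, higher, and blue, lower, at an adjusted p below 0.05). SYT13 at 3.26 stands above neighbours that range from -1.10 to 1.20, and the nearest 3 tested genes on one side of SYTL4 are marked as higher.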

How the data were processed

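The authors deposited one linear signal intensity per probe set and array, and the submitters' processing notes name MAS5, whose version and scaling target the sources used here do not give. Members and lists were chosen with earlier results of these data known. Control probe sets (62 of 54675) were left out. As in the study's methods, intensities were expressed relative to the median signal of the array. Exact zeros were set to 0.05 signal units and values were log2 transformed. The test took the 26563 probe sets whose mean over all arrays reached 1 array median. Groups were compared in limma 3.58.1 in R 4.3.3 (lmFit, then eBayes with trend, two-sided, Benjamini-Hochberg over all tested probe sets), and the threshold was an adjusted p below 0.05. The fit was tested on simulated data. With 3 arrays a group, the smallest p of an exact permutation test is 0.1. The number of arrays limits the precision, and p-values reflect only how far these samples differ, possibly for technical reasons.

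Genes were named from the platform annotation, with symbols brought up to date by Entrez identifier from the RefSeq table of GRCh38.p14. Of the probe sets 41091 had 1 symbol (41037 matched to RefSeq), 1801 had several, and 11721 without an entry are unnamed here. A listed gene was represented by its brightest tested probe set. Named were all members, each other list's genes past the threshold (at most 6) and its 2 brightest genes not past it, and up to 4 called and the 3 brightest markers of each cell type, not all of which are printed. Groups and replicate numbers came from the sample titles. Promoter entries were found for 5 of the 10 members. Tried as alternatives were each array left out, the replicate number as a block, the methods' t-test, no intensity trend, an offset of 0.5, low signals raised to the 25th percentile, a filter at 3 array medians or none, quantile normalization, no scaling, at least 2-fold, no probe sets of shared type, the mean over probe sets of a gene and the ratio of linear means. What is called the methods' t-test was a plain t-test with equal variances on the same filtered log2 values. It did not use the control strength filter or the error model of the study, so its counts are not those of the study.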

Additional observations from a re-analysis of the deposited data

How the results depend on the processing

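Over all tested probe sets 1528 were higher and 1135 lower. With no further scaling the counts were 1054 and 1204, without the intensity trend 698 and 504, in the methods' t-test 198 and 121, and at 2-fold or more 735 and 505, and with single arrays left out they ran from 476 to 3586 and from 393 to 3518. Of the 12 tested member probe sets 5 were higher and 1 lower. Without a filter 0 of 24 were lower, with a filter at 3 array medians 3 of 6 were higher, without the intensity trend and in the methods' t-test 2 were higher and 0 lower, and at 2-fold or more 0 were lower. With single arrays left out the counts ran from 1 to 6 and from 0 to 1. Of the 58 other secretion genes 3 were higher and 1 lower. With quantile normalization 2 were lower, at 2-fold or more and with the replicate block 0 were lower, without a filter 0 of 98 were lower, with a filter at 3 array medians 1 of 42 was higher, without the intensity trend 1 was higher and 0 lower, in the methods' t-test 0 and 0, with probe sets averaged 6 and 0, and with single arrays left out 0 to 7 and 0 to 5. Under the alternatives tried 0 called genes changed direction. The causes were not tested.

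Same-numbered arrays did not deviate together (r from -0.0218 to -0.0165 across probe sets). These values cannot show whether such arrays shared a culture or a processing day. With the replicate block 1265 probe sets were higher and 828 lower, and among the members 5 and 1. A dim signal limits SYT1, SYT11, SYT17, RAB3A and SCG5, whose folds rest on values near or below the array median.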

Other observations

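The genes whose log2 signal followed that of SYT13 most closely over the 6 arrays, by brightest probe set, were CD24, DPP4, ATP5MC2, CEMIP and CLDN2 (Pearson's r from 0.998 to 1.00), and 427 of 11848 genes reached 0.95 or more. For CADPS2 they were HSD17B1, TTC31, EOLA2-DT, KCTD6 and TMEM230 (0.987 to 0.993), and 94 genes reached 0.95. The 6 arrays form 2 groups, so these values reflect mostly the difference between the groups and are a description with no test.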
